A study of Rattus norvegicus with 3 samples.

Results

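Antiviral interferon-stimulated genes were examined in RNA labelled as rat adrenal medulla after a short and a longer stay in the cold. The 10 genes were Mx1, Mx2, Rsad2, Irf7, Ifit2, Ifit3, Isg15, Oas1a, Usp18 and Gbp2, out of 14217 genes that the arrays measure with a probe set of 1 symbol. A probe set is the group of short oligonucleotides that reads 1 transcript. Every probe set annotated to one of these genes alone was taken, which gave 12 of 31042: 2 each for Mx2 and Ifit2 and 1 each for the other 8 genes. The genes were chosen by their intensities on these same 3 arrays, since earlier results had most of them lower after the longer stay. Their values are therefore a description, and no test is given for them.

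The series holds 3 one-colour arrays of rats kept in the cold, 2 from 1 day (replicates a and b, called D1a and D1b here) and 1 from 7 days (called D7). All of them were cold-exposed, and a group at normal temperature was not analysed here. The titles also carry the words Multiple Organs, whose meaning is not stated. The labels give no strain, age, sex, temperature or pooling of animals. Nor do they say if D1a and D1b are 2 animals, and their spread may therefore be technical.

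Type I interferons bind a receptor made of Ifnar1 and Ifnar2, which activates the kinases Jak1 and Tyk2 and, downstream of them, a factor containing Stat2 and Irf9 that binds the interferon-stimulated response element (ISRE) in the promoters of antiviral genes. Type II interferon acts through the receptor subunits Ifngr1 and Ifngr2 and drives a partly overlapping set that includes guanylate-binding proteins. The products block virus entry, copying and protein synthesis, and most cell types, including endocrine and immune cells, can make them.

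The ISRE is known from promoters of many antiviral genes, so the promoter sequences at hand are shown first. RefSeq promoter windows of 300 bases (assembly GRCr8, 250 before and 50 after a transcript start) were matched by symbol for 6 of the 10 genes. They were searched on both strands for the ISRE core, GAAANNGAAA, which reads TTTCNNTTTC on the other strand and is in capitals here. Each sequence runs 5′ to 3′ along its gene.
Mx1, chr11:50294557-50294856, minus strand: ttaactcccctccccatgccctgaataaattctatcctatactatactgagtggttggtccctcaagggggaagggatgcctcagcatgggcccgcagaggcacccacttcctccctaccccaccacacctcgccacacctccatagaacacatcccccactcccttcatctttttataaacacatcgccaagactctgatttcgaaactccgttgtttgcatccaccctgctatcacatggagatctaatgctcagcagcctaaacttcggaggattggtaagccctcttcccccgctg
Rsad2, chr6:48788071-48788370, minus strand: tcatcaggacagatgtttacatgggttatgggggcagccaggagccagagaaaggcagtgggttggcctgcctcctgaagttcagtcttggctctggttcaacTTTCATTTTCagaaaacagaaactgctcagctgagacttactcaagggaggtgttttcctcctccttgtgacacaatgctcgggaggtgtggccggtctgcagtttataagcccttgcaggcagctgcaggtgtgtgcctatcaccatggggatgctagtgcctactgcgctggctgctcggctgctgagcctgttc
Irf7, chr1:205799974-205800273, minus strand: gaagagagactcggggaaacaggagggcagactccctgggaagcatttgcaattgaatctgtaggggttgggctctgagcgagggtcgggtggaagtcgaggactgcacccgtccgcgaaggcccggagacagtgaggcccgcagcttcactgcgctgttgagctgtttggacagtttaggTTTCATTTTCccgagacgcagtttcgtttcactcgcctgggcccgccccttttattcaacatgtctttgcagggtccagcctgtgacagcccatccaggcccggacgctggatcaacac
Ifit3, chr1:241527076-241527375, plus strand: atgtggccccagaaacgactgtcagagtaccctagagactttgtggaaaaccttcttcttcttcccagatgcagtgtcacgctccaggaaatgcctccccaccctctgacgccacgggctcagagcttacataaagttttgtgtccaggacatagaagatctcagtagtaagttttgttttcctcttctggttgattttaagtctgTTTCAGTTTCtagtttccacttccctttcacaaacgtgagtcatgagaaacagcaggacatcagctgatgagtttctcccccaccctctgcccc
Oas1a, chr12:41330216-41330515, plus strand: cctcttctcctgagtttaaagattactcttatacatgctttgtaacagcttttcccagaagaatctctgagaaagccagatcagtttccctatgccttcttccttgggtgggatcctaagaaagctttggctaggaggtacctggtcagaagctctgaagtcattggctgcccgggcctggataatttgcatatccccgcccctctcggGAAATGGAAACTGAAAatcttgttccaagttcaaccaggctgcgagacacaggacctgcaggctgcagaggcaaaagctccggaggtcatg
Gbp2, chr2:234005477-234005776, plus strand: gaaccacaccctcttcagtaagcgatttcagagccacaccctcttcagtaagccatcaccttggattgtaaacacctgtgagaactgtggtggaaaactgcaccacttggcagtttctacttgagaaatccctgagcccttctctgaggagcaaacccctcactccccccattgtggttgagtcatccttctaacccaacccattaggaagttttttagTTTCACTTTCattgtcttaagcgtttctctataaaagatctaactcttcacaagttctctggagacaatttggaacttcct

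The core was in 5 of these 6 windows, against 1312 of 33465 promoters of the same length in the whole table, or 3.92%. It lay close to the start in Gbp2 (first base at -31), Oas1a (-41 and -35), Ifit3 (-44) and Irf7 (-69), and farther out in Rsad2 (-147). The matches in Oas1a overlapped by 4 bases. The Mx1 window held no match, which says only that these letters are not in this window. The gamma-activated site, TTCNNNGAA, which reads the same on both strands, was in 1 of the 6 windows, that of Oas1a (first base at -199), and in 8.87% of all promoters. Among other antiviral genes 21 of 33 had the ISRE core in a window, and among the interferon-inducible GTPases 7 of 8. These counts are of genes with a match in any of their windows, while the share over all promoters counts windows. A match is a description of the letters and no evidence of binding.

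The arrays were not alike, and this bears on every value. Beta-actin signal at its 3′ end relative to its 5′ end, which is high in degraded or poorly copied RNA, was 231 on D1a, 6.11 on D1b and 8.87 on D7. The 27 control probe sets for Bacillus genes, which rat RNA should not contain, reached 2318 on D1a, 252 on D1b and 333 on D7, and 65.7%, 33.6% and 32.7% of gene probe sets read at or under those levels. Of the 12 probe sets of the antiviral genes, 3 did so on D1a and 0 on D1b and D7. In limma, fitted across the 15521 probe sets with a mean level at or above the median (the kept probe sets), 0 probe sets were called lower and 0 higher at 7 days (0% of those tested each way) at an adjusted p under 0.05. An unadjusted p under 0.05 was reached by 70. That fit has 1 residual degree of freedom, from D1a and D1b. The gap between these arrays was wider than that between D7 and D1b for 85.9% of the kept probe sets. The fit takes the spread of D1a and D1b for D7 too, so a lack of calls is no evidence that levels were alike.

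On D7 all 10 antiviral genes read lower than on D1b, and 7 of 10 also read lower than on D1a. Mx1 and Mx2, antiviral GTPases, stood lowest, at log2 differences of -1.31 and -1.17 from D1b, and these 2 of 10 were at least 2-fold lower than on both 1-day arrays. Rsad2, Ifit2, Irf7, Gbp2, Ifit3 and Isg15 lay between -0.75 and -0.44 from D1b, and Usp18 and Oas1a at -0.22 and -0.19. Gbp2, Ifit3 and Isg15 were the genes that read higher on D7 than on D1a. All log2 values and differences here are of log2(intensity + 16), and a gene with 2 probe sets is counted by the one of higher mean. Since the genes were chosen on this contrast, nothing is read from these counts. Of the 9292 genes that passed the same filter, 24.9% read lower than on both 1-day arrays and 24.8% higher than on both. At least 2-fold lower than on both were 0.226%. Against D1b alone 51.4% of these genes were lower and 0.430% at least 2-fold lower, and against D1a alone 48.8% and 17.8%.

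**Figure D1:**
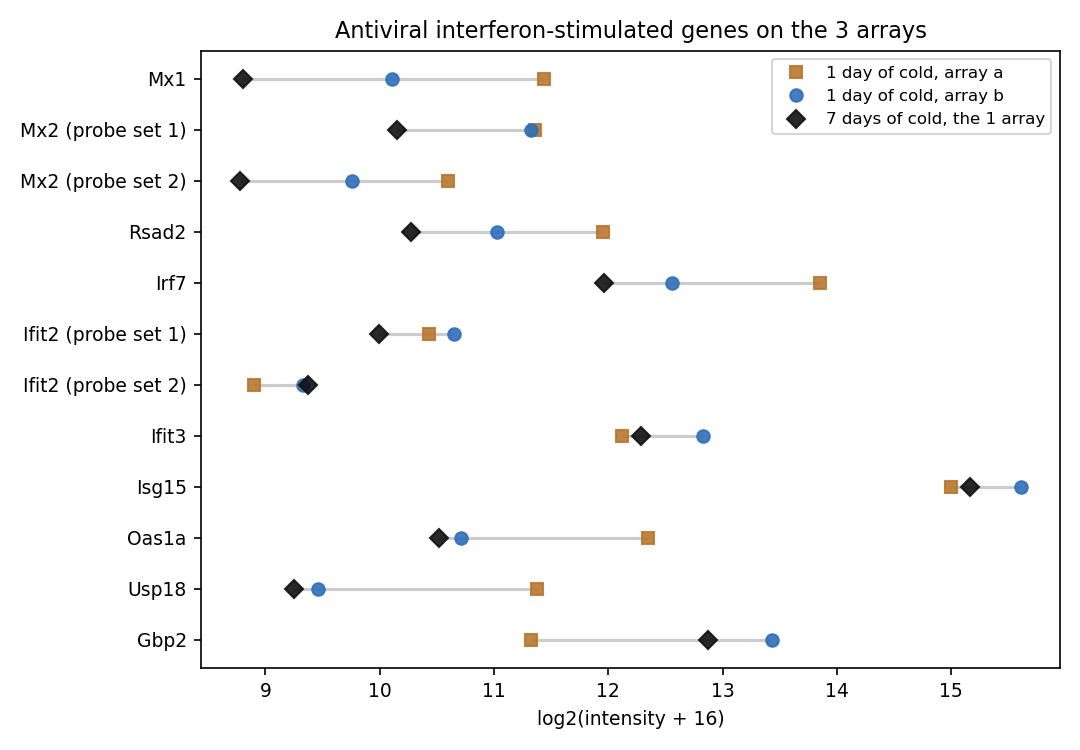
Level of each of the 12 probe sets of the antiviral genes on the 3 arrays, as log2(intensity + 16), with squares for D1a, circles for D1b and diamonds for D7 (1 array each). The D7 diamond lies left of the D1b circle for 11 of 12 probe sets, the second Ifit2 probe set being the other one, and left of the D1a square for 8 of 12.

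The median over the 10 genes was -0.58 against D1b and -1.44 against D1a, beside -0.01 and 0.04 over the 9292 genes. The SD of that member median over the 1-day arrays was 0.61 (n = 2). Positions within an array, which no scaling of an array as a whole can move, were lower on D7 than on D1b for 12 of 12 probe sets and lower than on D1a for 8 of 12. Over the 31042 gene probe sets these shares were 49.9% and 51.3%. As the genes were chosen on these intensities, the counts support nothing. The 1-day arrays parted from each other on these genes, with 6 of 10 higher on D1a and 4 of 10 higher on D1b. For 8 of 10 the gap between D1a and D1b was wider than that between D7 and D1b, as it was for 85.1% of the 9292 genes. Mx2 and Ifit2 were the genes for which it was narrower.

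**Figure D2:**
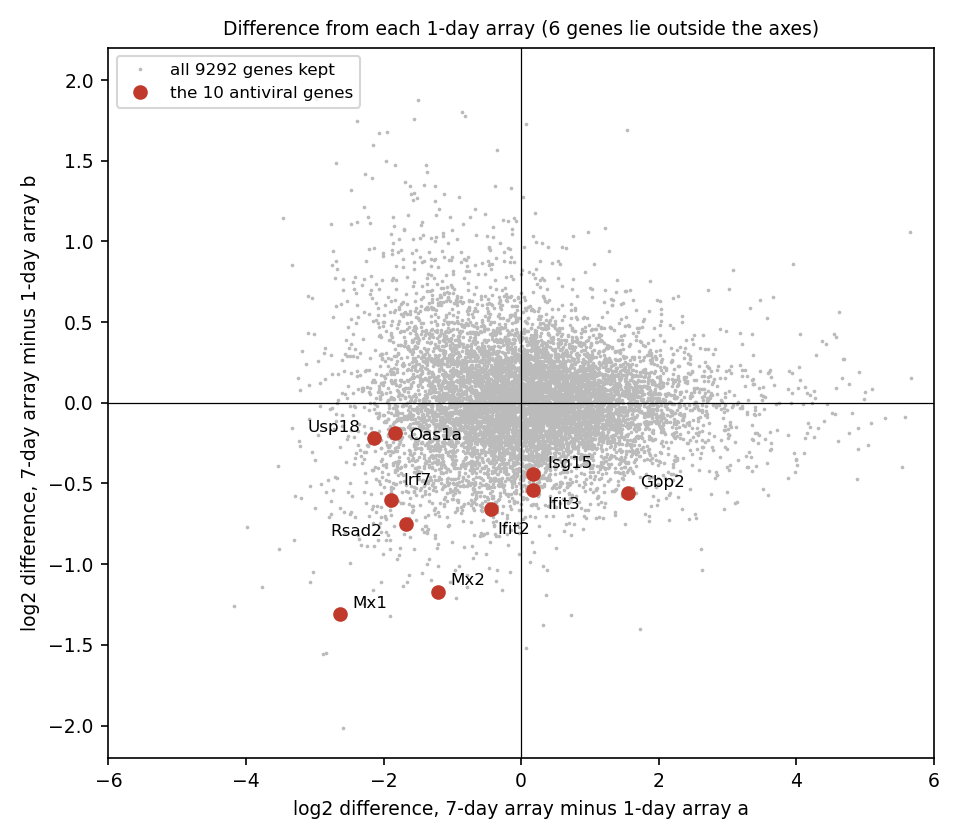
Log2 difference of D7 from D1a (horizontal axis) and from D1b (vertical axis) for the 9292 genes whose mean level reached the median of probe sets (grey) and the 10 antiviral genes (red). All 10 lie below 0 on the vertical axis, from -1.31 to -0.19, and they spread from -2.64 to 1.55 on the horizontal one, and 6 other genes fall outside the axes.

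Mx1 encodes a dynamin-like GTPase that traps viral nucleoproteins and is a standard reporter of type I interferon action. It read 2766 on D1a, 1090 on D1b and 430 on D7. The 7-day value was below both 1-day values, at percentile 39.4 of its array against 72.2 on D1a, with D1b between them. It was 6.24-fold lower than on D1a and 2.48-fold lower than on D1b, and 0.180% of the kept probe sets lay as far below D1b or farther. Set against the 1-day mean it differed by -1.98, with an SD of 0.94 between D1a and D1b (n = 2).

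Mx2, its paralogue, is encoded near Mx1 on chromosome 11 with 1 protein-coding gene between them in the RefSeq table. Its brighter probe set read 2610 on D1a, 2534 on D1b and 1121 on D7, and its dimmer one 1540, 851 and 423 in the same order. Both probe sets were lowest on D7. The brighter one gave nearly equal 1-day values (SD 0.03 on the log2 scale, n = 2) and a difference of -1.19 from their mean. The dimmer one gave -1.40 with an SD of 0.60. Against D1b the probe sets stood at -1.17 and -0.98, and against D1a at -1.21 and -1.82. The dimmer one was within the range of the Bacillus controls on D1a. The Mx genes are close relatives, and how far each probe set tells them apart was not tested.

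Gbp2 encodes a guanylate-binding protein, a GTPase induced strongly by interferon gamma that acts on pathogen-containing membranes. It read 2542 on D1a, 11013 on D1b and 7454 on D7. D7 lay between the 1-day arrays, 1.55 above D1a and -0.56 from D1b. Of the antiviral genes it had the widest spread between the 1-day arrays, with an SD of 1.49 (n = 2). The difference of D7 from their mean was 0.49.

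Rsad2 encodes viperin, a radical-SAM enzyme that makes a chain-terminating nucleotide against viral polymerases. It read 3943 on D1a, 2073 on D1b and 1222 on D7, and was lowest on D7. The differences were -1.68 from D1a and -0.75 from D1b, with an SD of 0.65 between the 1-day arrays (n = 2).

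Oas1a encodes an oligoadenylate synthetase, which senses double-stranded RNA and makes the second messenger that activates RNase L. It read 5221 on D1a, 1657 on D1b and 1449 on D7. D7 and D1b were close, at a difference of -0.19, and both were far below D1a, from which D7 differed by -1.84. As many as 25.4% of the kept probe sets lay as far below D1b as Oas1a or farther. The rat genome holds several Oas1 genes of like sequence. How far the probe set tells them apart was not tested, so the value may not be that of Oas1a alone.

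Irf7 encodes the transcription factor that amplifies type I interferon production and is itself induced by it. It read 14738 on D1a, 6020 on D1b and 3978 on D7. D7 was lowest, at -1.89 from D1a and -0.60 from D1b, while the 1-day arrays were 1.29 apart. It stood at percentile 86.6 on D1b and 81.6 on D7.

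Isg15 encodes a ubiquitin-like protein that is joined to newly made proteins during the response. It was among the brightest transcripts of the array, at percentiles 98.6, 98.8 and 98.1 of D1a, D1b and D7. The intensities were 32643, 49938 and 36815. D7 lay between the 1-day arrays, 0.17 above D1a and -0.44 from D1b.

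Usp18 encodes the protease that removes Isg15 from proteins and also blocks signalling at the interferon receptor. It read 2653 on D1a, 688 on D1b and 591 on D7. The D7 and D1b values differed by -0.22, and 22.9% of the kept probe sets were as far below D1b or farther. The gap between the 1-day arrays was 1.92.

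Ifit2 and Ifit3 encode tetratricopeptide proteins that bind viral RNA and halt its translation, and are neighbours on chromosome 1 with 0 protein-coding genes between them. Ifit3 read 4431 on D1a, 7256 on D1b and 4992 on D7, which placed D7 between the 1-day arrays, 0.17 above D1a and -0.54 from D1b. The brighter Ifit2 probe set read 1364, 1590 and 1000, lowest on D7, at -0.44 from D1a and -0.66 from D1b. The second Ifit2 probe set read 460 on D1a, 629 on D1b and 648 on D7, highest on D7, at 0.48 from D1a and 0.04 from D1b. The probe sets of Ifit2 thus disagreed in direction against both 1-day arrays. The second one was the only one of the 12 with a mean level under the median of probe sets, and both were within the range of the Bacillus controls on D1a.

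Each 1-day array was also compared with D7 under other scalings, since centring each array on its median moved the median of the 9292 genes from -0.01 to -0.19 against D1b and from 0.04 to 1.25 against D1a. Against D1b the 10 genes were lower under all 6 scalings. The shares of all genes lower than D1b ran from 49.5% to 75.5% over the same scalings. Mx1 ranged from -1.49 to -1.22, the brighter Mx2 probe set from -1.35 to -0.95, Rsad2 from -0.94 to -0.61 and Irf7 from -0.78 to -0.48. Against D1a the count of lower genes ranged from 5 to 8. The brighter Ifit2 probe set turned from -0.44 to 0.83 with quantile normalisation and 0.77 with median centring, and the brighter Mx2 probe set from -1.21 to 0.00 with median centring. Isg15 turned from 0.17 to -0.32 with quantile normalisation and -0.46 with a loess trend removed, and Ifit3 from 0.17 to -0.07 with the latter. Differences from D1a for these genes thus change sign with the scaling. Those for Mx1, Rsad2, Irf7, Oas1a and Usp18 stayed below 0 under the 6 scalings run, and that for Gbp2 stayed above 0 (1.33 to 2.76).

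**Figure D3:**
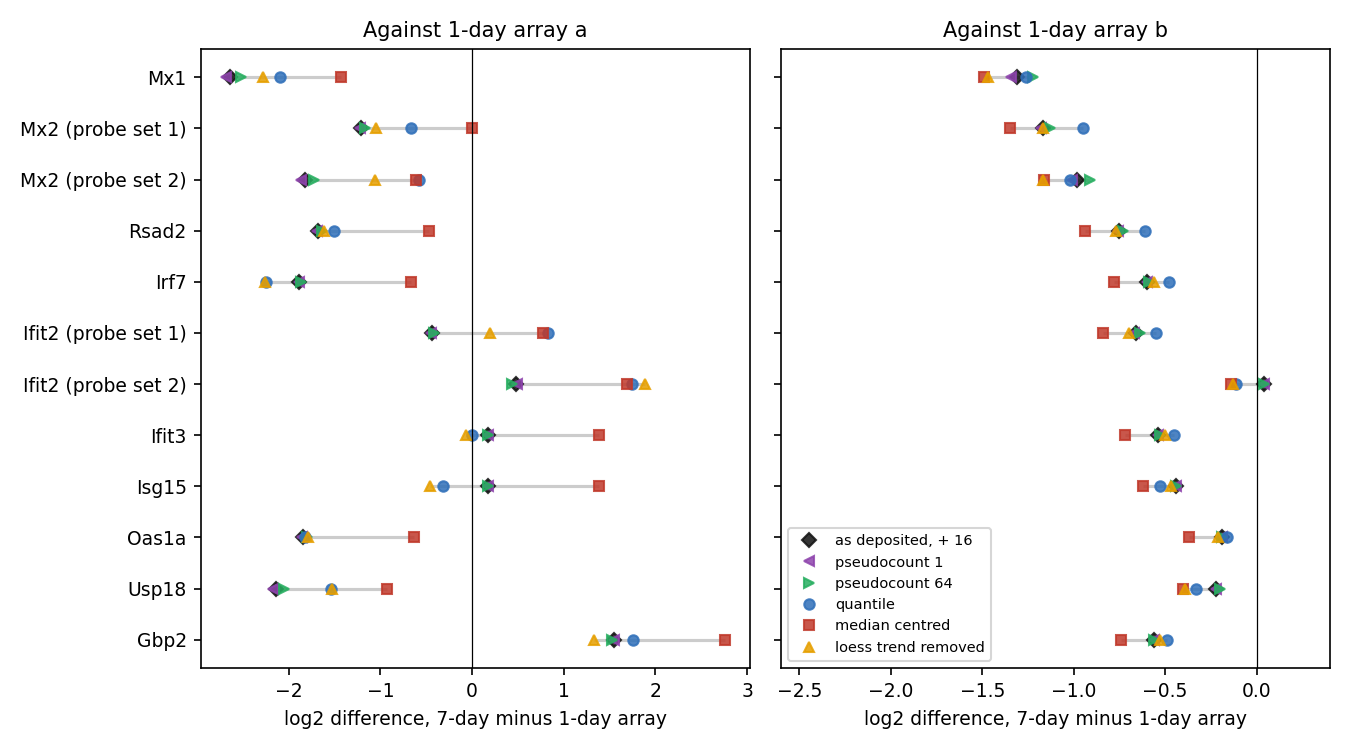
Log2 difference of D7 from D1a (left) and from D1b (right) for the 12 probe sets under 6 scalings, with 1 marker per scaling and a grey line over their range. On the right all but the second Ifit2 probe set (-0.14 to 0.04) stay below 0, and on the left the median-centred values (squares) reach 2.76 for Gbp2 and 1.38 for Ifit3.

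Other genes of the interferon pathway were described from lists written for this comparison, with each gene counted by its brighter probe set whatever its level. As a background, of the 14217 genes without a filter, 26.5% were lower on D7 than on both 1-day arrays and 21.7% higher than on both. At least 2-fold lower than both were 4.08%, lower than D1b 46.1% and lower than D1a 58.7%. In limma 0 genes of these lists were called in either direction.

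Among 30 other antiviral interferon-stimulated genes measured, 20 were lower than on D1b and 10 higher, with a median of -0.21, and 12 were lower than on both 1-day arrays against 3 higher than on both. Against D1a 19 were lower and 11 higher, with a median of -0.45. Oas1b (2332 on D1a, 135 on D1b and 26.3 on D7), Ifit1 (2084, 182 and 56.5) and Epsti1 (1051, 777 and 292) read lowest on D7. Samhd1, which breaks down nucleotides needed for viral DNA synthesis, read highest there (117, 178 and 513). These 4 genes had mean levels under the median. Each was within the range of the Bacillus controls on some arrays, Ifit1 on all 3, Oas1b on D1b and D7, Epsti1 on D1a and D7 and Samhd1 on D1a and D1b, so no difference is given for them. With median centring the median against D1a became 0.77, with 9 of 30 lower.

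The interferon-inducible GTPases Gbp4, Gbp7, Igtp, Irgm and Irgm2 were placed between the 1-day arrays, as Gbp2 was. These 5 of 5 measured were lower on D7 than on D1b, with a median of -0.54, and higher than on D1a, with a median of 1.36, under all 6 scalings. The second probe set of Igtp was higher than on D1b. On D1a, Gbp7, Igtp and Irgm were within the range of the Bacillus controls, and Irgm had a mean level under the median. Of the 3 measured genes for joining Isg15 to proteins, which leaves out Usp18 as one of the 10 genes, 3 were lower than on D1b and 2 lower than on both. Ube2l6, the conjugating enzyme, read 3911 on D1a, 2049 on D1b and 1578 on D7 (-0.37 from D1b), and Uba7, the activating enzyme, 1760, 1077 and 1072 (-0.01). Uba7 too was within the range of the Bacillus controls on D1a, and 2 of its 3 probe sets were lower than on D1b.

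Upstream genes had list medians between -0.17 and -0.09 against D1b, with single dim genes far above 0. Against D1a the medians were -0.38 for interferons and receptors, 0.31 for signal transducers, -0.47 for regulatory factors and -1.17 for sensors and adaptors, and with median centring 0.83, 1.52, 0.74 and 0.03. Of 9 interferon and receptor genes 5 were lower than on D1b and 4 higher (median -0.12), with Ifnar1 at -0.41, Ifnar2 at -0.33 and Ifngr1 at -0.12. Ifnar1 has 6 probe sets, 5 of them lower than on D1b. Ifnk (2608 on D1a, 270 on D1b and 241 on D7) and the lambda receptor Ifnlr1 (139, 157 and 334) had mean levels under the median and were within the range of the Bacillus controls, Ifnk on D7 and Ifnlr1 on D1a and D1b. Of 10 signal transducers 6 were lower and 4 higher than on D1b (median -0.09). Irf9, the DNA-binding subunit of the ISRE factor, read 4500 on D1a, 2468 on D1b and 1790 on D7, lowest on D7 (-0.46 from D1b), and its other probe set was also lower than on D1b. Stat2 stood at -0.30 with its other probe set higher, Jak1 at -0.35, Jak2 at 0.21 and Tyk2 at 0.44. Tyk2 had a mean level under the median and was within the range of the Bacillus controls on D1a. Of 6 interferon regulatory factors, which count Irf9 again, 4 were lower and 2 higher (median -0.17). Irf8 stood at -0.44, Irf3 at 0.00 and Irf1 at 0.10, which became -0.08 with median centring. Of 10 sensors and adaptors 7 were lower and 3 higher (median -0.13), with Eif2ak2 (protein kinase R) at -0.19 and Mavs at -0.14. Of the 2 probe sets of Mavs, 1 was lower than on D1b. Ifih1 was within the range of the Bacillus controls on all 3 arrays.

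**Figure D4:**
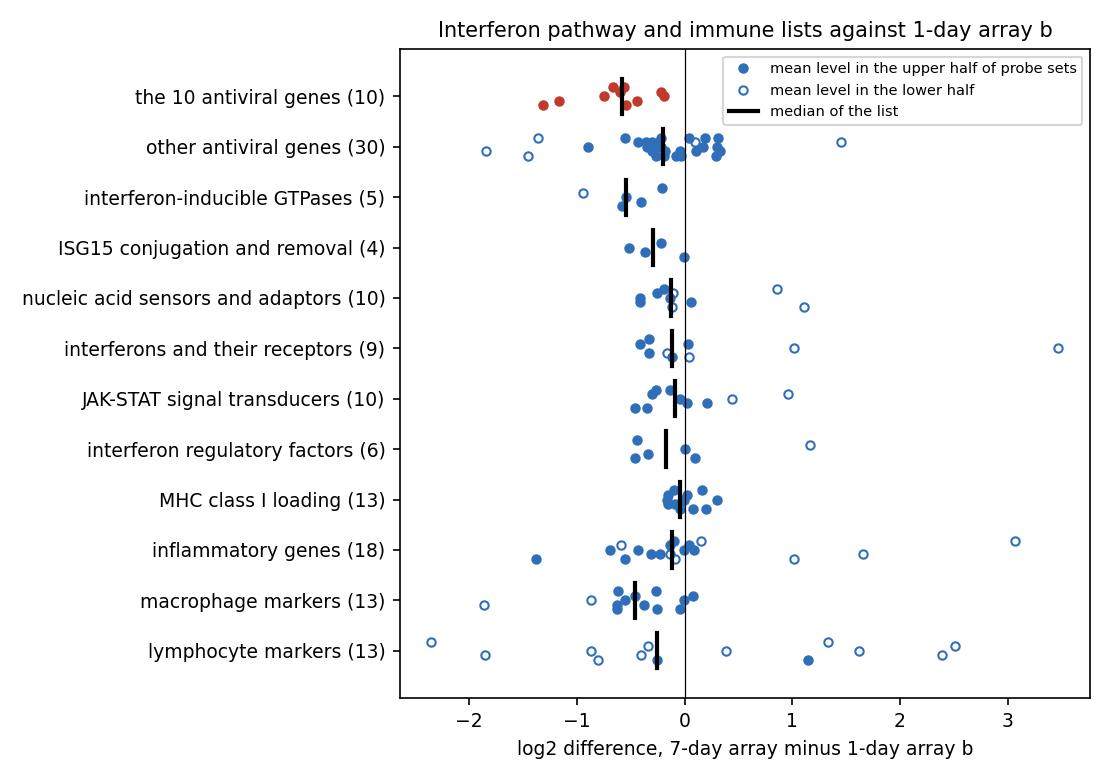
Log2 difference of D7 from D1b for each measured gene of 12 lists, with the number of genes in brackets. Usp18 is in the Isg15 list too, and Irf9 is in the lists of signal transducers and of regulatory factors. Filled points have a mean level at or above the median of probe sets, open points one under it, and a bar marks the list median. The 10 antiviral genes (red) lie between -1.31 and -0.19, and the MHC class I loading genes between -0.16 and 0.30.

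Genes of MHC class I peptide loading and the immunoproteasome, many of which interferon also induces, lay close to D1b. Of 13 measured, 8 were lower and 5 higher than on D1b, with a median of -0.04 (11 lower and a median of -0.23 with median centring). B2m stood at 0.20 (-0.01 with quantile normalisation), Tap2 at 0.30, Psmb8 at 0.16 (-0.02 with median centring) and Nlrc5 at -0.10. Of the 2 probe sets of B2m, 1 was lower than on D1b. The difference between this list and the 10 antiviral genes was not tested. Of 18 inflammatory genes 12 were lower and 6 higher than on D1b (median -0.12). The interferon-induced chemokine Cxcl10 read 849 on D1a, 3079 on D1b and 2282 on D7, between the 1-day arrays. Ccl2 (-0.69), Cxcl11 (-0.59), Relb (-0.55) and Tnfaip3 (-0.31) were lower on D7 than on both. On D1a, Cxcl10, Ccl2, Cxcl11 and Relb were within the range of the Bacillus controls, and Cxcl11 had a mean level under the median. Against D1a, Ccl2, Cxcl11 and Relb turned to 0.95, 0.62 and 0.25 with quantile normalisation. With median centring they came to 0.76, 0.41 and 0.30. Tnfaip3 stayed lower than on D1a under these scalings (-1.16 and -0.50).

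Markers of the tissue and of immune cells were read beside these genes. Th, Dbh, Pnmt and Chga of chromaffin cells were at percentile 99.5 or higher on each array, and so were Cyp11a1, Hsd3b1 and Star of the adrenal cortex, so the RNA labelled as medulla also held cortex transcripts. The 8 measured cortex markers were all higher on D7 than on D1b (median 0.40), also under the other 5 scalings, and 5 were higher than on both 1-day arrays. Among these 5, Cyp17a1 was within the range of the Bacillus controls on every array and Cyp11b1 on D1a. Of 13 macrophage markers, 12 were lower than on D1b (median -0.46) and 11 higher than on D1a (median 0.39), with 10 to 13 lower than on D1b over the scalings. Their summed intensity was 33425 on D1a, 72089 on D1b and 57911 on D7, and that of the 10 antiviral genes 72911, 83860 and 59052. Isg15 alone gave 32643, 49938 and 36815 of the latter sums, which are thus weighted towards 1 bright gene. The macrophage genes C1qa, Cd163, Fcer1g and Tyrobp read 9558, 1438, 4720 and 954 on D1a. On D1b they read 14529, 2484, 8220 and 1717, and on D7 12057, 1595, 5317 and 1108. Csf1r (580 on D1a, 2257 on D1b and 2239 on D7) and Cd68 (590, 3480 and 3380) lay nearer to D1b. Mrc1 (3549, 7982 and 8421) was higher on D7 than on both. Of the 13 macrophage markers, 8 were within the range of the Bacillus controls on D1a, 1 on D1b and 2 on D7. Of 7 fibroblast markers, 7 were lower than on D1b under all 6 scalings (median -0.40) and 3 lower than on both 1-day arrays, with a median of 1.17 against D1a. Their summed intensity was 36874 on D1a, 147032 on D1b and 131699 on D7. Of 11 chromaffin cell markers, 6 were higher and 5 lower than on D1b (median 0.20, and -0.14 with quantile normalisation). Endothelial markers had a median of 0.07 against D1b (-0.12 with median centring), and Schwann and sustentacular markers 0.30. Of 13 lymphocyte markers, 13 were within the range of the Bacillus controls on D1a, 7 on D1b and 8 on D7. Their summed intensity was 13027 on D1a, 3570 on D1b and 3973 on D7, and that of 8 dendritic cell and neutrophil markers 18945, 18300 and 15859. No marker was listed at 0. The part of macrophage, fibroblast or cortex RNA in the antiviral values was not tested. In such tissue RNA, fewer cells of a type and less RNA per cell cannot be told apart.

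Genes of like pattern were sought by the Euclidean distance between 3-array profiles, each taken as log2 values minus their own mean, over the 9292 genes. Nearest to Mx1 were Sobp (0.18), Slc31a2 (0.20), Bend5 (0.23), Zfp329 (0.27), Plppr4 (0.31) and Ccsap (0.33). The nearest other antiviral gene, Irf7, ranked 62 (0.60), Rsad2 ranked 99 and Mx2 ranked 871. Nearest to the mean profile of the 10 genes were Rpp30 (0.03), Zfp236, Prelp, Diaph1, Afap1l1 and Wiz (each 0.04 or 0.05), none of them on the interferon lists, and the 10 genes themselves ranked between 498 and 8484. Over 3 arrays many genes share a profile by these measures, so nearness is a description of these values.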

How the data were processed

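The authors deposited 1 linear intensity per probe set and array, already summarised. With a 2% trimmed mean of 2501 on all 3 arrays, the values appear scaled to a common mean. The software is not given in the sources used here. Groups and replicate letters came from the sample titles. Values were turned into log2(intensity + 16), and 57 control probe sets were left out of gene comparisons. Symbols came from the platform annotation, updated through Entrez identifiers in the RefSeq table of GRCr8 (20758 of 20826 probe sets with 1 symbol). A two-sided limma test (lmFit, then eBayes with trend = TRUE) was run on all 3 arrays, with p-values adjusted by Benjamini-Hochberg and a threshold of 0.05, over the 15521 probe sets with a mean at or above 9.60 (an intensity of 759), of which 11 of the 12 antiviral probe sets passed. It takes the spread of the 1-day pair for the lone 7-day array. The steps were tested on simulated data in which every array had the spread seen between D7 and D1b. The wider gap between D1a and D1b was not simulated, so that test does not show what limma can find in these data.

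The genes, the lists and the rule for naming genes were chosen with earlier results of these data known. All 10 genes are described. From each other pathway list at most 4 genes were named, those farthest from 1-day array b with the same sign against array a, plus 14 genes whatever their values, and 6 nearest profiles. The 5 GTPases were named after their values were seen.

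Alternatives were pseudocounts of 1 and 64, quantile normalisation, median centring, a loess trend removed (span 0.5), averaging a gene's probe sets, no filter, limma without a trend or with robust = TRUE, and leaving out each 1-day array. R 4.3.3, limma 3.58.1, Python 3.11.15, pandas 2.3.3 and matplotlib 3.10.9 were used. Precision is limited by the number of arrays.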

Additional observations from a re-analysis of the deposited data

How the results depend on the processing

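Over the alternatives run, limma called 0 probe sets each time, with 3 to 70 at an unadjusted p under 0.05. The median against 1-day array b ranged from -0.76 to -0.51 over the scalings. With median centring the median against 1-day array a was -0.23 in place of -1.44. The count at least 2-fold lower than both 1-day arrays was 1 in place of 2 with quantile normalisation and with median centring. Leaving out 1-day array a it was 2 and leaving out array b 6, and the count lower was 10 and 7. Among probe sets, these differences changed sign. Against array a, the brighter Ifit2 probe set came to 0.83 with quantile normalisation, 0.77 with median centring and 0.20 with the loess trend removed, the brighter Mx2 probe set to 0.00 with median centring, Isg15 to -0.32 with quantile normalisation and -0.46 with the loess trend removed, and Ifit3 to -0.07 with the latter. Against array b, the second Ifit2 probe set came to -0.11 with quantile normalisation, -0.14 with median centring and -0.13 with the loess trend removed. The cause was not tested. Without 1 of the 1-day arrays limma has no residual degrees of freedom and was not run. No paired analysis was possible because the groups share only 1 replicate letter. On 1-day array a, values under 2318 lie within the range of the Bacillus controls.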
